A study of Homo sapiens with 2 samples.

Results

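KIT, FLT3, CSF1R, CSF3R, CSF2RA, CSF2RB, IL3RA, IL6R, IL6ST and EPOR, the receptor genes through which the main blood growth factors act, were followed in cells that had just left the endothelial to hematopoietic transition (EHT). The 10 genes were taken by symbol, and all 10 were among the 32738 genes counted. The cells came from IPS11, an established line of human induced pluripotent stem cells. CD34+ cells derived from it spent 5 days in EHT medium on plates that were uncoated or coated with VCAM1, DLL4 or both proteins, and the nonadherent cells were collected. DLL4 is a Notch ligand and VCAM1 an adhesion ligand. Each coating condition was pooled from 3 wells and marked with 1 of 4 hashtag antibodies, 0252 to 0255, and the 4 pools were sequenced as 1 library. The link from hashtag to coating is not given in the sources used here, so hashtags are compared by number only. Each condition is 1 pool of 1 line, so no difference below has a replicate check, no p-value is given, and every interval covers counting error only.

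Of 10836 barcodes, 8488 were called for 1 hashtag, and 7550 of these had at most 36000 unique molecular identifiers (UMIs, each marking 1 captured transcript), 6000 genes and 18% of UMIs from mitochondrial genes. They held 142110950 UMIs, with a median of 18318.5 per cell and of 17621 to 18769.5 in the 4 hashtags. Levels are summed UMIs per 1000000 UMIs (CPM) with exact Poisson 95% intervals. Since only transcript ends were counted, a level is compared between cells for the same gene and never between genes. RNA was measured, not receptor protein.

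The receptors belong to a few families. KIT, FLT3 and CSF1R are receptor tyrosine kinases, for stem cell factor (SCF), Flt3 ligand and macrophage colony-stimulating factor (M-CSF). CSF3R and EPOR bind granulocyte colony-stimulating factor (G-CSF) and erythropoietin (EPO) as homodimers. CSF2RA, IL3RA and IL5RA each bind 1 ligand, GM-CSF, IL-3 or IL-5, and signal only with the shared beta chain CSF2RB. IL6R and IL11RA likewise need the shared chain IL6ST, also called gp130. The receptors without a kinase domain of their own signal through JAK kinases and STAT factors. The EHT medium, as the methods list it, contained SCF, Flt3 ligand, IL-3, IL-6 and IL-11, among other factors. EPO, G-CSF, M-CSF, GM-CSF and IL-5 are not among its listed factors.

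Cells were sorted in silico by marker gates, each a smallest number of UMIs of genes that mark a blood lineage (10, or 5 for EPX and SPINK2, and at least 1 of CD34 and 1 of GATA2). The gates held 2131 cells for CD34/GATA2 (progenitors), 645 for SPINK2 (stem and lymphoid-primed progenitors), 635 for C1QA, C1QB and C1QC (macrophages), 68 for ELANE (neutrophil precursors), 291 for EPX (eosinophil precursors) and 432 for the globin genes (erythroid cells). The PF4/PPBP gate (megakaryocytes) held 5 cells when cells of other gates were left out, and 98 more cells passed it together with the globin gate. It is therefore given with overlap allowed, as 108 cells, which was decided once these numbers were known. A stromal gate (COL1A1 and COL3A1, 71 cells) is given as cells of another tissue. Genes of the macrophage marker list summed to 590 CPM in it, against 54.2 to 176 CPM in the blood gates shown other than C1Q. Whether macrophages or the stromal cells themselves gave this RNA was not tested, so its receptor levels are taken as no clean floor. A level within the stromal interval below is therefore not read as background. The remaining 3154 cells passed no gate, and 558 of them held at least 100 UMIs of the granule genes MPO, PRTN3 and AZU1, a split likewise decided later.

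Markers that the gates had not used were checked against each name. All 8 macrophage markers were at least 2-fold higher in the C1Q gate (summed level 2740 CPM, at most 590 CPM in the other gates with 50 or more cells), among them CD14 at 106 CPM and the scavenger receptors MRC1 at 15.1 CPM and CD163 at 5.67 CPM. All 6 neutrophil granule markers rose past that size in the ELANE gate (41299 CPM summed), and 5 of 6 eosinophil markers did in the EPX gate (5686 CPM), which also held 4470 CPM of the neutrophil granule markers. For the globin gate it was 5 of 7, with GYPB at 599 CPM and KLF1 at 86.4 CPM, but SLC4A1, the band 3 anion exchanger of mature red cells, was at 0 and AHSP at 1.91 CPM. The globin gate also held 791 CPM of the megakaryocyte markers, against 14.3 to 202 CPM in the other exclusive gates with 50 or more cells. The 108 PF4/PPBP cells held 1830 CPM of the megakaryocyte markers. They also held 450 CPM of the erythroid markers, against 831 CPM in globin cells, so these gates were not cleanly apart. The CD34/GATA2 gate was poorly set apart, with 1 of its 7 markers past 2-fold and a summed level of 541 CPM below the 722 CPM of globin cells. The SPINK2 gate had 2 of 5, and its markers summed to 405 CPM there. They summed to 132 to 373 CPM in the other blood gates shown, but to 837 CPM in stromal cells. HLF, a stem cell factor, was at 1.54 CPM in both the CD34/GATA2 and the SPINK2 gate. Their markers thus did not set them apart as progenitors or stem cells, and they are called by their genes. Lymphoid markers summed to 445 CPM in SPINK2 cells and 591 CPM in C1Q cells, against 20.4 to 146 CPM in the other blood gates shown. Among them, DNTT was at 0 in all kept cells.

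All 10 receptors were found in blood cells, FLT3 by 63 UMIs alone, and most had 1 gate in which its level stood clear of the rest. CSF1R, CSF2RA, IL3RA and IL6R peaked in C1Q cells, CSF3R in ELANE cells, CSF2RB in EPX cells, and EPOR in cells with globin or PF4/PPBP RNA. Of these, IL6R and EPOR did not stand clear. The IL6R interval of C1Q cells overlapped that of ELANE cells. The EPOR intervals of globin and PF4/PPBP cells overlapped each other and those of stromal and ELANE cells. IL6ST was highest in stromal cells and, among blood cells, in those with PF4/PPBP. KIT had no such peak and was spread over the CD34/GATA2, SPINK2, ELANE, EPX, globin and PF4/PPBP gates, with a low in C1Q cells. A gene was called higher or lower where its level in a gate was at least 2-fold that in all other kept cells or at most that far below it, and 9 of the 10 receptors had enough UMIs to be compared.

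**Figure D1:**
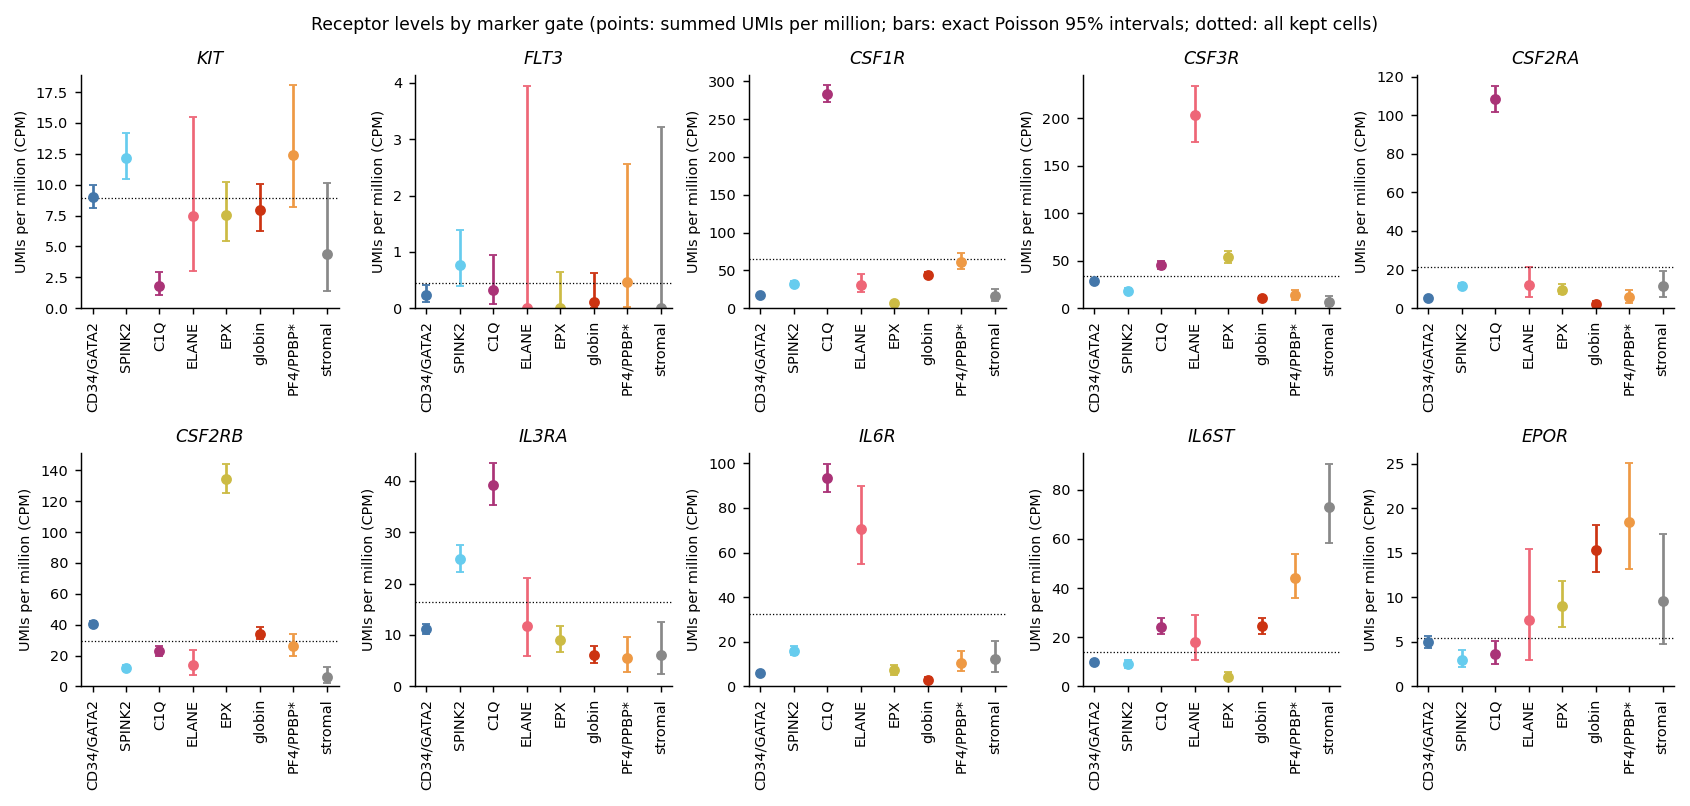
Levels of the 10 receptor genes in CPM (vertical axes, each from 0) in 8 marker gates (horizontal axes), with exact Poisson 95% intervals and the level over all kept cells as a dotted line; PF4/PPBP* allows overlap with other gates. CSF1R reached 284 CPM in the C1Q gate, CSF3R 204 CPM in the ELANE gate and CSF2RB 134 CPM in the EPX gate, each with an interval clear of every other gate shown.

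For CSF1R, CSF3R and EPOR, the receptors that each peaked in a different lineage, the 250 bases before a RefSeq transcript start (GRCh38.p14, gene strand, 5′ to 3′) show the short letters that lineage factors are known to read. Capitals mark GAGGAA, the core read by PU.1, a factor of myeloid cells, AGATAA, read by GATA factors, TTGCAA, read by C/EBP factors, and TGTGGT, read by RUNX factors, on either strand. The windows are chr5:150086555-150086804 on the minus strand for the more downstream of both CSF1R starts, chr1:36482914-36483163 on the minus strand for the more downstream of both CSF3R starts, and chr19:11384315-11384564 on the minus strand for EPOR. The windows of the more upstream CSF1R and CSF3R starts held none of the 4 motifs and are not printed.
CSF1R: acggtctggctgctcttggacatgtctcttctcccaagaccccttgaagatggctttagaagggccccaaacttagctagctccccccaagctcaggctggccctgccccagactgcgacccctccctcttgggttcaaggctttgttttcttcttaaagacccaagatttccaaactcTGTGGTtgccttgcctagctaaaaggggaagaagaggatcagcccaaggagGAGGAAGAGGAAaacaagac
CSF3R: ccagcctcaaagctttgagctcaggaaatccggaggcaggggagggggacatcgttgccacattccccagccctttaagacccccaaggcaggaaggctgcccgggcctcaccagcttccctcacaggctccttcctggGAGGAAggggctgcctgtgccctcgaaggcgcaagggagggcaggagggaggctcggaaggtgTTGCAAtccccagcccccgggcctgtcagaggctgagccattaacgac
EPOR: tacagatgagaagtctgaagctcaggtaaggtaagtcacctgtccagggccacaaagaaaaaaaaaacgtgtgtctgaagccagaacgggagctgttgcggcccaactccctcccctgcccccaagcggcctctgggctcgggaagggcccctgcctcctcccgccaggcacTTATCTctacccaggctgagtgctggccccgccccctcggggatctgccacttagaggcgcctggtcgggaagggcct
The CSF1R window holds GAGGAA at 2 places, 1 directly after the other, and TGTGGT beginning 71 bases before the start. That of CSF3R holds GAGGAA 111 bases before the start and TTGCAA 48 bases before it, and the EPOR window holds AGATAA, read on the opposite strand, 78 bases before it. Among 34961 RefSeq windows of this length, 23.6% held GAGGAA, 9.18% AGATAA, 4.72% TTGCAA and 10.98% TGTGGT. Of 9 members with an entry, 5 held GAGGAA (FLT3, CSF1R, CSF3R, CSF2RA and IL6R), and the C/EBP, GATA and RUNX letters were each found in 1 member, the one shown. CSF2RB had no entry. These are matches of letters, and binding was not measured.

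KIT, the SCF receptor (chr4:55523434-55606949 in hg19, plus strand), had 1265 UMIs in 1058 cells, and 902 of these cells had a single UMI. Its level was 12.2 CPM (95% interval 10.5 to 14.2) in the SPINK2 gate, 12.4 (8.19 to 18.1) with PF4/PPBP, 9.01 (8.14 to 9.94) with CD34/GATA2, 7.97 (6.23 to 10.1) with globin, 7.56 (5.47 to 10.2) with EPX and 7.50 (3.02 to 15.5) with ELANE. These 6 levels were in a narrow range, and only that of SPINK2 stood clear of another gate among them (CD34/GATA2, globin and EPX). In C1Q cells it was 1.82 CPM (1.06 to 2.91), 0.193 times the other cells (0.112 to 0.311). A KIT UMI was found in 22.9% of SPINK2 cells and 2.68% of C1Q cells, at median depths of 22075 and 13396 UMIs. After every cell was thinned to 5000 UMIs, the shares were 6.98% and 1.11%. SCF was in the medium of all of these cells.

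FLT3, the receptor that marks lymphoid-primed and dendritic progenitors (chr13:28577411-28674729 in hg19, minus strand), had 63 UMIs in 58 cells of 7550, 0.443 CPM (0.341 to 0.567). It was at 0.771 CPM (0.385 to 1.38) in the SPINK2 gate with 11 UMIs and at 0.227 CPM (0.109 to 0.417) in the CD34/GATA2 gate with 10. No FLT3 UMI was found in the ELANE, EPX and stromal gates, which at 68, 291 and 71 cells allow shares of cells with a UMI of up to 4.41%, 1.03% and 4.23%. Most of the FLT3 UMIs, 36 of 63, came from cells that passed no gate and had under 100 UMIs of the granule genes, at 0.799 CPM (0.560 to 1.11). Its own ligand gene, FLT3LG, was at 0.943 CPM over all cells. At this depth FLT3 RNA was close to the limit of detection in every gate, although Flt3 ligand was in the medium.

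CSF1R, the M-CSF receptor that marks macrophages and their precursors (chr5:149432854-149492935 in hg19, minus strand), differed widely among gates. It stood at 284 CPM (273 to 295) in C1Q cells, 5.78 times the other cells (5.52 to 6.05), and 93.5% of C1Q cells had a CSF1R UMI, 71.5% after thinning. The next levels were 61.7 CPM (51.7 to 73.0) in PF4/PPBP cells, 43.7 (39.5 to 48.3) in globin cells, 32.3 (29.4 to 35.4) in SPINK2 cells and 31.1 (20.8 to 44.6) in ELANE cells, where the last pair did not differ beyond their intervals. CD34/GATA2 cells had 17.2 CPM (16.0 to 18.5), which lay within the interval of stromal cells, 15.7 CPM (9.29 to 24.8), and EPX cells were lowest at 6.33 CPM (4.44 to 8.77). The CD34/GATA2 level was clear of that of EPX cells. The ungated cells with granule genes had 85.9 CPM (80.3 to 91.8) and the other ungated cells 84.1 (81.5 to 86.8). IL6R was at 2.81 CPM in globin cells and at 47.3 CPM in the latter ungated cells.

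CSF3R, the G-CSF receptor of the neutrophil line (chr1:36931644-36948879 in hg19, minus strand), was highest in ELANE cells at 204 CPM (176 to 235), 6.31 times the other cells (5.43 to 7.29), and 88.2% of these cells had a UMI (68.7% after thinning). The ungated cells with MPO, PRTN3 and AZU1 followed at 118 CPM (112 to 125). EPX cells had 53.6 CPM (47.8 to 60.0) and C1Q cells 45.1 (40.9 to 49.6), and these levels did not differ beyond their intervals. CD34/GATA2 cells had 28.5 CPM (26.9 to 30.1) and SPINK2 cells 18.6 (16.4 to 21.0), both above the 6.09 CPM (2.45 to 12.6) of stromal cells. In globin cells it was 10.8 CPM (8.73 to 13.2), 0.309 times the other cells, which overlapped the stromal interval. CSF3R and CSF1R, the receptors of the granulocyte and macrophage arms, were found in the same cell in 38.6% of C1Q cells, 26.5% of ELANE cells and 57.3% of the ungated cells with granule genes, and in 15.3%, 7.46% and 15.7% after thinning. In CD34/GATA2 cells the shares were 8.92% and 1.08%.

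CSF2RA, the GM-CSF alpha chain (chrX:1387693-1429274 in hg19, plus strand, in the region shared by X and Y), was at 108 CPM (102 to 115) in C1Q cells, 7.21 times the other cells (6.67 to 7.78). A CSF2RA UMI was found in 72.4% of C1Q cells (41.3% after thinning), and 67.9% had UMIs of both CSF1R and CSF2RA (30.7% after thinning). In the ELANE, SPINK2, EPX, PF4/PPBP, CD34/GATA2 and globin gates it was at 2.36 to 11.8 CPM, none above the 11.3 CPM (6.03 to 19.4) of stromal cells beyond their intervals. The stromal level came from 13 UMIs and is no clean floor. The ungated cells without granule genes had 30.0 CPM (28.4 to 31.6). C1Q cells were clear of every other gate for this chain, and the SPINK2 level of 11.4 CPM (9.68 to 13.3) and the EPX level of 9.50 (7.14 to 12.4) were clear of the 2.36 CPM (1.46 to 3.61) of globin cells.

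CSF2RB, the beta chain shared by the IL-3, IL-5 and GM-CSF receptors (chr22:37309670-37336481 in hg19, plus strand), had another order. It was at 134 CPM (125 to 144) in EPX cells, 5.38 times the other cells (4.97 to 5.82), and 69.4% of these cells had a UMI. CD34/GATA2 cells came next at 40.5 CPM (38.7 to 42.5), then globin cells at 34.1 (30.4 to 38.2), PF4/PPBP cells at 26.2 (19.9 to 34.0) and C1Q cells at 23.0 (20.02 to 26.3). The last pair did not differ beyond their intervals. SPINK2 cells were lower at 11.7 CPM (10.0 to 13.6), 0.374 times the other cells, and ELANE cells had 13.9 CPM (7.42 to 23.8) from 13 UMIs. Stromal cells had 6.09 CPM (2.45 to 12.6). The CD34/GATA2 and SPINK2 gates were therefore 40.5 against 11.7 CPM for this chain.

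IL3RA, the IL-3 alpha chain also known as CD123 (chrX:1455509-1501582 in hg19, plus strand, in the region shared by X and Y), was the reverse of CSF2RB in these gates. SPINK2 cells had 24.7 CPM (22.2 to 27.4) and CD34/GATA2 cells 11.1 (10.2 to 12.2), the latter within the stromal interval of 6.09 CPM (2.45 to 12.6). C1Q cells were highest at 39.1 CPM (35.2 to 43.4), 2.64 times the other cells (2.35 to 2.95). ELANE cells had 11.8 CPM (5.88 to 21.1), EPX cells 8.97 (6.68 to 11.8), globin cells 6.07 (4.56 to 7.91) and PF4/PPBP cells 5.52 (2.85 to 9.64), none clear of the stromal level. That level came from 7 UMIs in a gate with macrophage marker RNA, so it cannot show whether these levels are background. Both IL-3 receptor chains were found together in 8.63% of CD34/GATA2 cells, 7.44% of SPINK2, 8.98% of C1Q and 9.62% of EPX cells, and after thinning in 0.939%, 0.775%, 1.58% and 1.04%. These shares did not differ beyond their intervals. Of these 4 gates, SPINK2 cells had the lowest CSF2RB level and EPX cells the lowest IL3RA level.

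For GM-CSF and IL-5, the gates differed in the share of cells with UMIs of an alpha chain and the shared beta chain. UMIs of CSF2RA and CSF2RB occurred together in 17.95% of C1Q cells and 12.4% of EPX cells, against 1.47% to 3.94% in the CD34/GATA2, SPINK2, ELANE, globin, PF4/PPBP and stromal gates. After thinning they were 5.70% and 1.38% (0.378 to 3.51), and the latter overlapped the 0.282% (0.103 to 0.612) of CD34/GATA2 cells. IL5RA, the eosinophil-defining IL-5 alpha chain, was at 28.5 CPM in EPX cells and at most 1.23 CPM in the other gates, and 25.8% of EPX cells had both IL5RA and CSF2RB (6.92% after thinning). No SPINK2, C1Q, ELANE or stromal cell had both. In C1Q cells at full depth, CSF2RB was found in 24.8% of cells with CSF2RA and 25.7% of those without. It was thus about as frequent at that depth in C1Q cells with CSF2RA as in those without it. After thinning the C1Q shares were 13.8% and 10.2%. In EPX cells at full depth, CSF2RB was found in 80.0% of cells with CSF2RA and 67.5% of those without. After thinning the order was reversed, at 28.6% and 38.9%, with 4 cells that had both chains. For IL5RA in EPX cells the shares were 76.5% and 65.8% at full depth and 51.3% and 36.4% after thinning. Neither GM-CSF nor IL-5 is among the listed factors of the EHT medium.

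IL6R, the ligand-binding chain for IL-6 (chr1:154377669-154441926 in hg19, plus strand), was highest among the gates in C1Q and ELANE cells. It was at 93.4 CPM (87.3 to 99.8) and 70.7 (54.7 to 89.96), 3.32 times (3.08 to 3.57) and 2.20 times (1.70 to 2.80) the other cells. The intervals of both levels overlapped. Ungated cells with granule genes had 90.6 CPM (84.8 to 96.6) and the other ungated cells 47.3 (45.3 to 49.4). All ungated cells together held 3055 of the 4607 IL6R UMIs, so this RNA was not confined to the gates. SPINK2 cells had 16.1 CPM (14.0 to 18.3) and stromal cells 12.2 (6.66 to 20.5), whereas PF4/PPBP cells had 10.6 (6.71 to 15.9), EPX cells 7.21 (5.18 to 9.78), CD34/GATA2 cells 6.195 (5.48 to 6.98) and globin cells 2.81 (1.82 to 4.15). SPINK2 cells were thus clear of EPX, CD34/GATA2 and globin cells but not of stromal cells. IL-6 was in the medium of all of these cells.

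IL6ST, the gp130 chain shared by IL-6 and IL-11 (chr5:55230923-55290850 in hg19, minus strand), was at 73.1 CPM (58.3 to 90.5) in stromal cells, 5.36 times the other cells. PF4/PPBP cells had 44.2 CPM (35.8 to 53.9), 3.23 times the other cells (2.60 to 3.97), and 54.6% of them had a UMI. Globin cells had 24.5 CPM (21.3 to 28.0), C1Q cells 24.3 (21.2 to 27.6) and ELANE cells 18.2 (10.6 to 29.2), which did not differ beyond their intervals, and nor did CD34/GATA2 cells at 9.87 (8.97 to 10.8) and SPINK2 cells at 9.19 (7.68 to 10.9). EPX cells were lowest at 3.87 CPM (2.43 to 5.86). IL11RA, the IL-11 chain, was at 7.91 to 41.8 CPM in all 8 gates. Both chains of the IL-6 receptor were found in 127 of 635 C1Q cells and 14.7% of ELANE cells, in 9.26% of PF4/PPBP and 8.45% of stromal cells, and in 2.08% of globin and 1.69% of CD34/GATA2 cells. Ungated cells had both IL-6 chains in 19.9% of those with granule genes and 9.78% of the others (3.78% and 1.49% after thinning). After thinning, the IL-6 shares were 5.22% (3.62 to 7.26) of C1Q and 4.48% (0.933 to 12.5) of ELANE cells. They were 0 (0 to 3.42) of PF4/PPBP, 1.47% (0.0372 to 7.92) of stromal, 0.465% (0.0564 to 1.67) of globin and 0.141% (0.0290 to 0.411) of CD34/GATA2 cells. C1Q cells were then not clear of ELANE or stromal cells, and ELANE cells were clear of CD34/GATA2 cells alone. For IL-11 the shares were 28.2% of stromal, 15.7% of PF4/PPBP, 11.8% of globin and 6.62% of CD34/GATA2 cells, against 3.62% of C1Q and 2.94% of ELANE cells. After thinning, the IL-11 shares of these 6 gates were 0 to 1.47% with overlapping intervals, so that order was not detectable at equal depth.

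EPOR, the erythropoietin receptor (chr19:11487883-11495018 in hg19, minus strand), had 776 UMIs in 690 cells. It was at 15.3 CPM (12.8 to 18.1) in globin cells, 3.18 times the other cells (2.62 to 3.83), and at 18.4 CPM (13.1 to 25.1) in PF4/PPBP cells, 3.50 times (2.48 to 4.81). Both levels were alike within their intervals. The 98 cells with both globin and PF4/PPBP RNA, which held 37 of the 40 EPOR UMIs of PF4/PPBP cells, had 19.2 CPM (13.5 to 26.4). Below them came stromal cells at 9.58 CPM (4.78 to 17.1) from 11 UMIs, EPX cells at 8.97 (6.68 to 11.8), ELANE cells at 7.50 (3.02 to 15.5), CD34/GATA2 cells at 4.99 (4.35 to 5.70), C1Q cells at 3.64 (2.52 to 5.08) and SPINK2 cells at 3.02 (2.18 to 4.06). Globin cells were clear of the CD34/GATA2, SPINK2, C1Q and EPX gates but not of stromal cells. EPO was not listed for the medium.

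**Figure D2:**
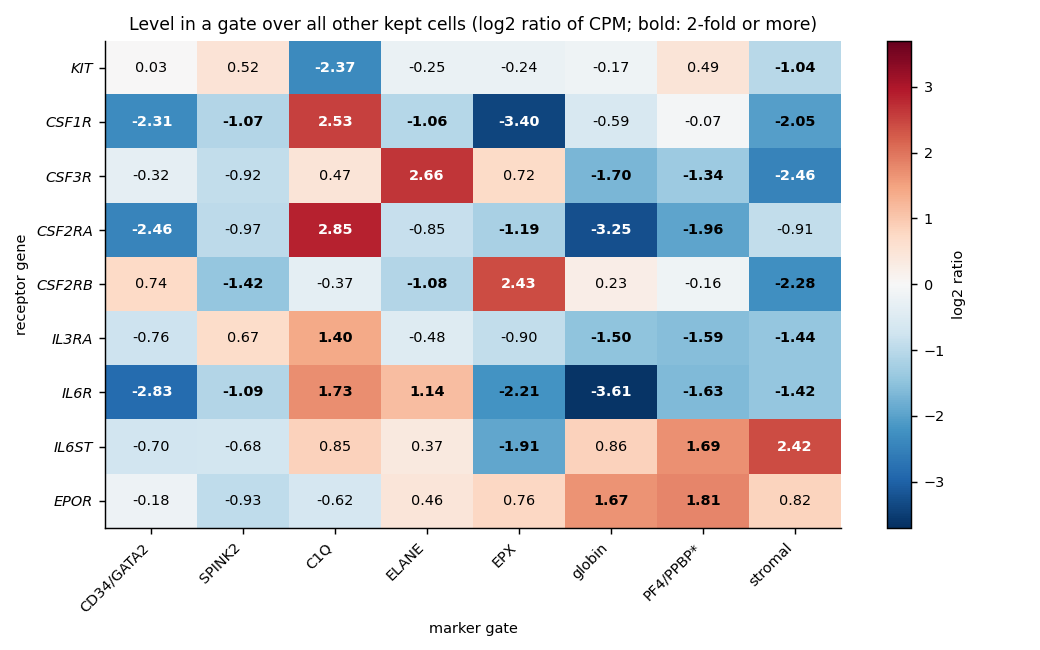
Log2 ratio of each receptor's level in a gate (columns) to that in all other kept cells (color and number), for the 9 receptors with enough UMIs; bold numbers are at least 2-fold. C1Q cells were higher for CSF1R, CSF2RA, IL3RA and IL6R and lower for KIT, and the lowest ratios were those of IL6R in globin cells (-3.61) and CSF1R in EPX cells (-3.40).

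Counted over gates, the receptors were called at these rates, beside the rate of all genes compared in the same gate. In C1Q cells 4 of 9 receptors were higher and 1 was lower, where 9.6% of 10320 genes were higher and 8.41% lower. ELANE cells had 2 higher and 2 lower (9.09% and 10.1% of all genes), and EPX cells 1 higher and 4 lower (2.52% and 6%). Globin cells had 1 higher and 4 lower (4.82% and 7.15%), and PF4/PPBP cells 2 higher and 4 lower (8.73% and 15.1%). CD34/GATA2 and SPINK2 cells had none higher and 3 lower each, where 1.4% and 0.683% of all genes were higher and 5.11% and 4.38% lower. In stromal cells 1 was higher and 6 were lower (18.7% and 16.6%). The median log2 ratio of the 9 receptors was -0.70 in CD34/GATA2, -0.93 in SPINK2, -0.90 in EPX and 0.85 in C1Q cells, against -0.01, 0.03, 0.00 and -0.11 over all genes compared. The receptors were chosen as known blood genes, so these counts describe them and test nothing.

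**Figure D3:**
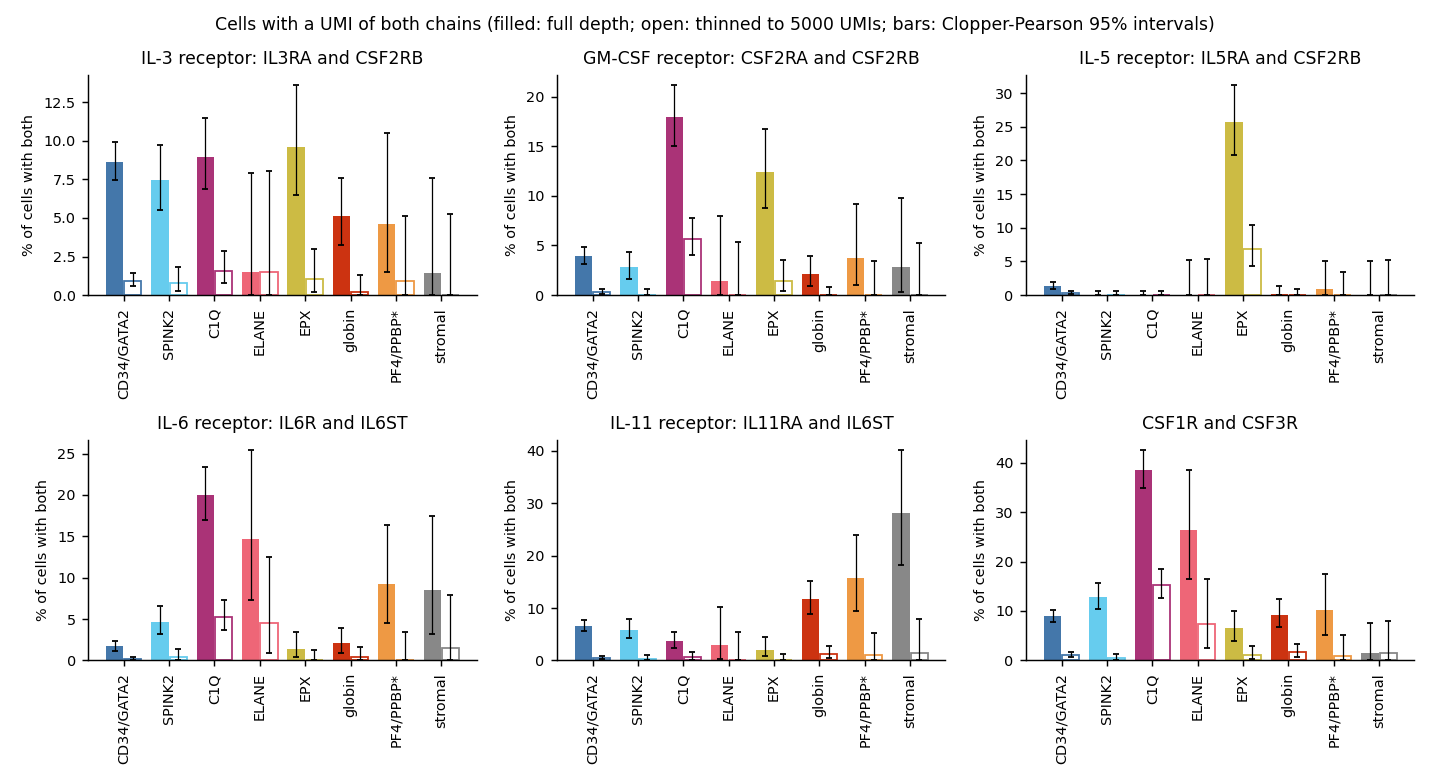
Percentage of cells with at least 1 UMI of both chains of a receptor (or of CSF1R and CSF3R) in 8 gates, at full depth (filled bars) and after thinning each cell to 5000 UMIs (open bars), with Clopper-Pearson 95% intervals. The IL-5 pair was found in 25.8% of EPX cells, the GM-CSF pair in 17.95% of C1Q cells, and the IL-3 pair in 7.44% to 9.62% of CD34/GATA2, SPINK2, C1Q and EPX cells.

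Other cytokine receptors followed C1Q cells most. Of 27 partner and other receptor genes, 19 could be compared there. Of these, 9 were higher and 2 lower, where 9.6% and 8.41% of all genes were. The higher ones included IL7R, the IL-7 receptor (42.0 CPM, 11.1 times the other cells), IL10RA (42.9 CPM, 10.4 times) and IL21R (31.8 CPM, 5.56 times). They also included IFNGR1 (159 CPM, 5.50 times), IL13RA1 (81.9 CPM, 5.23 times) and IL4R (39.8 CPM, 4.29 times). The median log2 ratio of the 19 was 0.77, against -0.11 over all genes. Lymphoid markers summed to 591 CPM in this gate, of which LTB gave 546 CPM, while RAG1 was at 0.107 CPM and DNTT at 0. Their part in the IL7R level was not tested. In every other gate shown, more of the list was lower than higher. Globin cells had 8 lower and 0 higher of 18 (7.15% and 4.82% of all genes). CD34/GATA2 cells had 7 lower and 1 higher of 18 (5.11% and 1.4%), and EPX cells 6 lower and 2 higher of 20 (6% and 2.52%). IL5RA and IL1RL1, the IL-33 receptor of eosinophils and mast cells (50.5 CPM, 3.73 times), were higher in EPX cells. Mast or basophil markers summed to 226 CPM in EPX cells, against 9.64 to 156 CPM in the other gates with 50 or more cells. CD34/GATA2 cells were also higher for IL1RL1 (26.8 CPM, 2.75 times), with 114 CPM of those markers. Of the JAK and STAT genes, STAT5A, which acts below IL-3, GM-CSF and EPO, was higher in CD34/GATA2 cells (46.2 CPM, 2.03 times) and lower in C1Q cells (13.2 CPM, 0.421 times), where JAK2 and STAT2 were higher (13.6 and 24.1 CPM).

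Negative feedback genes differed likewise. SOCS1 was 98.8 CPM and 2.41 times the other cells in CD34/GATA2 cells and 22.7 CPM and 0.368 times in C1Q cells. SOCS3, a feedback gene of gp130, was 36.4 CPM and 3.50 times in C1Q cells and 2.11 CPM and 0.169 times in EPX cells. In C1Q cells 10 of 36 signalling genes were higher and 3 lower (9.6% and 8.41% of all genes). CISH, a STAT5 target, was at 31.8 to 64.3 CPM in the 7 blood gates shown and was called in none of them. BCL2L1, a survival gene, was higher in globin cells (98.2 CPM, 2.20 times) and PF4/PPBP cells (156 CPM, 3.35 times). So was PIM2 (34.1 CPM, 3.03 times, and 53.8 CPM, 4.46 times). Of 34 signalling genes, 3 were higher and 4 lower in globin cells (4.82% and 7.15% of all genes). In PF4/PPBP cells 4 were higher and 5 lower (8.73% and 15.1%). A link of these genes to receptor signalling was not tested.

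Ligand RNA was scarce in the cells themselves. CSF3, IL5 and IL6 had no UMI in any kept cell, and KITLG, FLT3LG, IL34, IL3, IL11 and EPO were each at under 1 CPM over all kept cells. CSF1, which encodes M-CSF, was at 5.45 CPM in C1Q cells, 4.47 times the other cells, and at 18.3 CPM in stromal cells, which also had KITLG at 5.22 and IL11 at 7.84 CPM. CSF2, which encodes GM-CSF, was the exception among blood cells, with 15.5 CPM in CD34/GATA2 cells (6.09 times the other cells) and 16.7 CPM in globin cells (2.85 times), and at most 1.18 CPM in the other gates. It was found in 252 cells, 3.34% of all, and 76 cells had at least 5 UMIs of it, 57 of them in the CD34/GATA2 gate. The same gates had low CSF2RA, at 5.17 and 2.36 CPM, and CSF2RA was highest in C1Q cells, where 3 of 635 cells had a CSF2 UMI.

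Between hashtags, levels of several receptors differed in the same direction. CSF3R was at 44.4 CPM (42.4 to 46.5) in 0252, 41.4 (39.4 to 43.4) in 0253, 23.5 (22.0 to 25.2) in 0254 and 19.0 (17.5 to 20.7) in 0255. IL6R was at 39.2, 40.2, 24.4 and 22.0 CPM, and CSF1R at 77.0, 73.8, 54.8 and 45.8 CPM in that order. CSF2RB was at 33.2, 34.4, 27.2 and 19.7 CPM, with 0255 below the other 3. IL6ST was at 16.1, 16.1, 11.2 and 12.4 CPM. For all 5, hashtags 0252 and 0253 were above 0254 and 0255 with no overlap of intervals.

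KIT went the other way, at 7.82 CPM (6.98 to 8.73), 7.33 (6.50 to 8.24), 10.4 (9.38 to 11.6) and 10.7 (9.53 to 12.0). This order was not that of every group, as globin cells had KIT at 9.14, 7.74, 8.02 and 3.93 CPM, the last called lower from 3 UMIs, and ungated cells with granule genes at 10.8, 6.89, 5.02 and 10.1 CPM. EPOR was at 6.04, 6.24, 5.33 and 3.75 CPM, and only 0255 (3.07 to 4.53) was clear of the others. CSF2RA (20.1 to 22.4 CPM) and IL3RA (14.5 to 17.5 CPM) varied least, with highest over lowest ratios of 1.12 and 1.20. None of the 9 receptors was called 2-fold apart in a hashtag against the other 3, where 0.89% of all gene and hashtag comparisons were. The highest over lowest ratio was 2.33 for CSF3R, 1.83 for IL6R, 1.75 for CSF2RB and 1.68 for CSF1R.

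The makeup of the hashtags differed, with ELANE cells at 1.64%, 1.25%, 0.271% and 0.191% of 0252 to 0255, ungated cells with granule genes at 10.7%, 11.6%, 3.14% and 2.55%, and stromal cells at 0.468%, 0.451%, 0.812% and 2.36%. When each gate was weighted to its pooled share, CSF3R was at 44.7, 40.2, 24.0 and 19.8 CPM. IL6R was then at 41.8, 38.3, 25.4 and 21.4 CPM. For both, 0252 and 0253 thus stayed above 0254 and 0255. Ungated cells were weighted as a single class, so the unequal shares of cells with granule genes among them were not evened out. In ungated cells without granule genes, CSF3R was at 32.4, 25.3, 13.7 and 14.5 CPM, CSF1R at 111, 102, 68.6 and 56.9 CPM and IL6R at 62.8, 62.1, 34.8 and 30.8 CPM, and in those with granule genes CSF3R was at 126, 128, 85.4 and 78.1 CPM. In the latter cells CSF1R, at 83.1, 91.5, 97.1 and 52.9 CPM, and IL6R, at 91.2, 96.9, 91.2 and 52.9 CPM, did not keep that order, with 0255 alone the lowest.

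**Figure D4:**
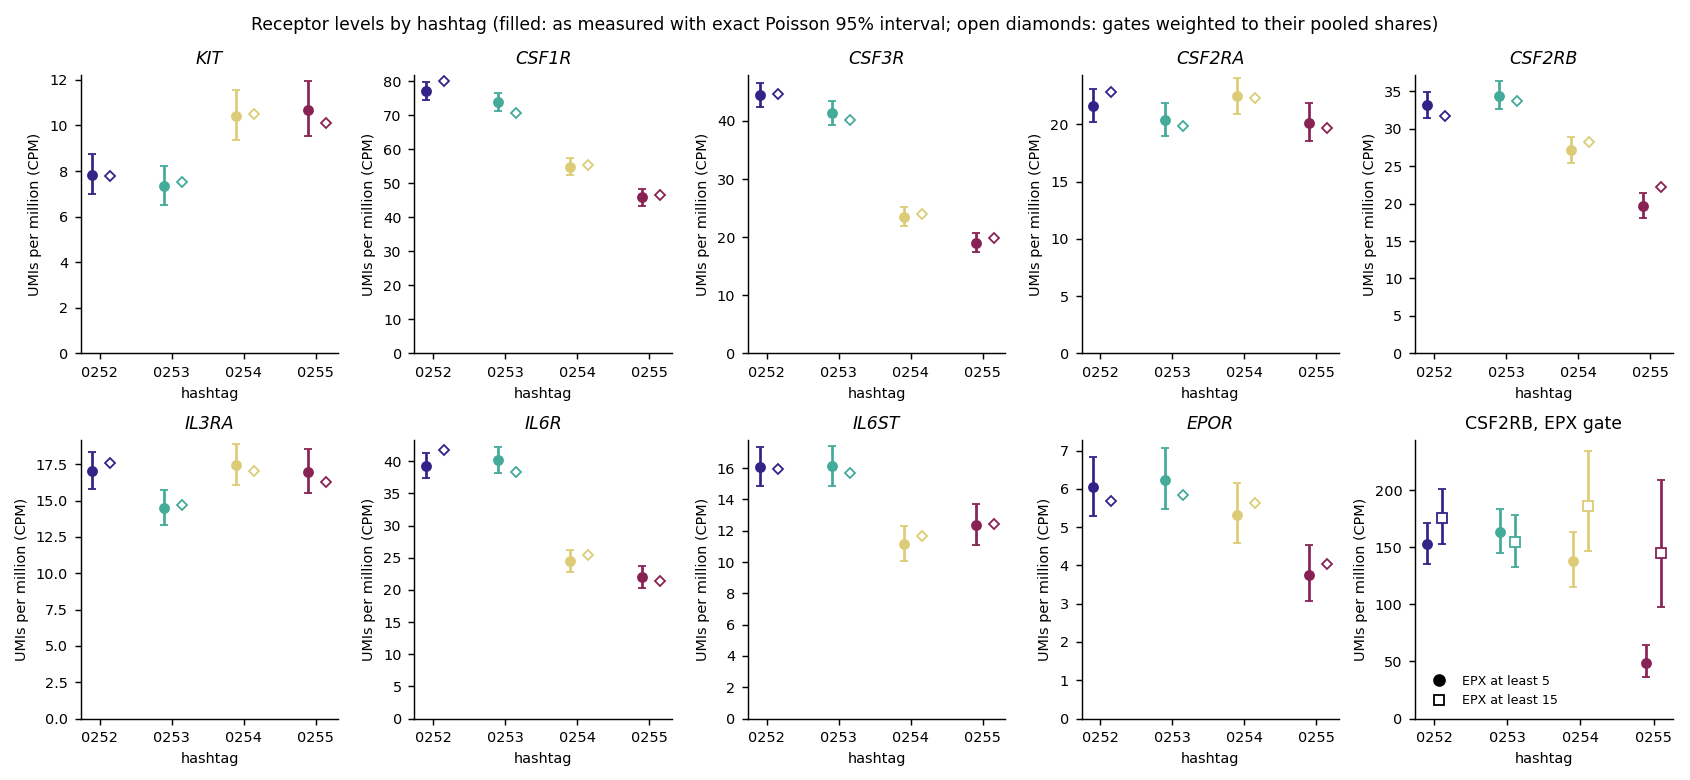
Levels of 9 receptors in CPM (vertical axes from 0) by hashtag, as measured with exact Poisson 95% intervals (filled) and with each gate weighted to its pooled share (open diamonds); the last panel gives CSF2RB in cells with at least 5 (circles) or 15 (squares) UMIs of EPX. CSF3R, IL6R and CSF1R were higher in 0252 and 0253, and KIT was higher in 0254 and 0255. CSF2RB of 0255 EPX cells was 48.8 CPM at the lower EPX limit and 145 CPM, in 11 cells, at the higher.

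Within gates that had at least 20 cells of each hashtag, 15 of 158 receptor and hashtag comparisons were 2-fold apart. They were 7 in EPX, 5 in globin and 1 each in CD34/GATA2, SPINK2 and C1Q cells, where 6.14%, 4.1%, 0.354%, 1.03% and 3.44% of all comparisons were. CSF1R fell in order in C1Q cells, at 354 CPM (331 to 377), 276 (257 to 297), 268 (248 to 289) and 210 (189 to 233), and CSF3R there was at 68.3, 47.9, 29.6 and 28.3 CPM. IL6ST in the same cells was at 33.8, 29.5, 15.8 and 14.1 CPM. C1Q cells of 0252 were thus high for all 3, and those of 0255 were low, though none of these passed 2-fold against the other hashtags.

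IL6R in SPINK2 cells was at 26.4 CPM (21.6 to 31.9), 18.7 (13.5 to 25.3), 9.88 (7.06 to 13.5) and 10.4 (7.46 to 14.1), and the first was 2-fold above the other hashtags. CD34/GATA2 cells of 0255 were called lower for IL6R at 2.64 CPM (1.64 to 4.04), against 5.36 to 7.96 CPM in the other 3. In those cells CSF2RB was at 47.8, 47.8, 34.1 and 28.2 CPM. Globin cells had CSF2RB in the opposite order, at 19.5 CPM (14.98 to 25.1), 30.3 (24.3 to 37.2), 57.7 (47.6 to 69.2) and 48.4 (34.1 to 66.7), called lower in 0252 and higher in 0254.

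EPX cells differed most in 0255. CSF2RB was at 153 CPM (135 to 171), 163 (145 to 183), 138 (115 to 163) and 48.8 (36.3 to 64.2), and CSF3R at 73.9, 63.2, 36.5 and 16.3 CPM. EPX itself was at 2051, 2054, 1412 and 646 CPM in these cells, with medians of 22, 27, 11 and 7 UMIs per cell, so EPX cells of 0255 lay closer to the gate's limit of 5. In cells with at least 15 EPX UMIs (60, 61, 21 and 11 cells), a limit set once the gate's values were known, CSF2RB was at 176, 154, 187 and 145 CPM (97.3 to 209 in 0255), and all 4 intervals overlapped. CSF3R at that limit was at 85.8, 56.7, 42.8 and 35.1 CPM. The low CSF2RB of 0255 was thus not seen among its 11 cells past that limit, which held 29 CSF2RB UMIs. The limit selects on the gate's own gene, and the cause of the low level was not tested.

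Some genes followed a receptor's level closely over 23 gate and hashtag groups of at least 20 cells, which share a library and differ in depth and makeup. With 10908 genes ranked by Pearson's r of log2(CPM + 1), the closest to CSF1R were NUDT16 (r = 0.95), TNFAIP8L2 (0.94) and HLA-E (0.92). Those of IL6R were CYBB (0.96), which encodes a subunit of the phagocyte NADPH oxidase, KIAA0930 (0.96) and SAMHD1 (0.94), and those of CSF2RA were PAK1 (0.96), TYMP (0.96) and SLA (0.95). CSF3R was followed by PTBP3 (0.93), CFD (0.93) and S100P (0.93), and IL3RA by IRF8 (0.91), TNFRSF1B (0.91) and P2RY6 (0.91). CSF2RB was followed by KCNH2 (0.89), CDK15 (0.86) and LMO4 (0.85), KIT by MPHOSPH6 (0.91), MIF (0.88) and CD82 (0.87), IL6ST by RAB13 (0.93), CDC42BPB (0.92) and CPQ (0.92), and EPOR by CDC27 (0.85), NENF (0.83) and HK1 (0.83). For FLT3, at most 1.31 CPM in any of these groups, the highest r was 0.63 (ETFDH, RSBN1L and EIF3G), too sparse a count to read.

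Few of these receptors were detected at once in a single cell, and the number found depended on depth. Over all kept cells the mean was 2.35 at full depth and 0.952 after thinning. A cell without a UMI may still hold the transcript. A cell had UMIs of a median of 2 of the 10 receptor genes, and 10.9% had none. C1Q cells had a mean of 3.71 and CD34/GATA2 cells of 1.83 at full depth, and 2.13 and 0.593 after thinning, where 7.12% and 53.9% of cells had none. ELANE cells had a mean of 1.57 after thinning. Read by ligand, levels of the M-CSF receptor and the GM-CSF alpha chain were highest in C1Q cells, and that of the G-CSF receptor in ELANE cells. The IL-6 alpha chain was high in both of these gates. Both IL-5 receptor chains were highest in EPX cells, and the EPO receptor in cells with globin or PF4/PPBP. These are RNA levels per gate, not shares of cells with both chains. KIT was detected in every blood gate, lowest in C1Q cells.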

How the data were processed

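Nonadherent cells from day 5 of EHT were profiled as 1 droplet library of gene RNA and 1 of hashtag antibodies. Cell Ranger 6.0.1 and hg19 were used by the authors, and the deposited tables hold raw UMI counts of genes and antibodies. A deposited hashtag call per barcode was used unchanged (1339 doublets and 1009 negatives were left out). Kept cells had at most 36000 UMIs, 6000 genes and 18% mitochondrial UMIs, limits taken from the paper's methods. Antibody UMIs were not part of the totals. Scrublet removed no cell in the setting reported and was tried as an alternative.

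UMIs were summed per gate or hashtag and divided by the total (CPM). Genes were compared with at least 5 CPM on one side and 10 UMIs in all, and called at 2-fold. Intervals were exact Poisson for levels, exact conditional for ratios and Clopper-Pearson for shares, at 95%. They cover counting error only, and the limit for a count of 0 was set at 3 counts. Shares were repeated with each cell thinned to 5000 UMIs, leaving out 68 shallower cells. The stromal gate was planned as a level of background RNA, but it held macrophage marker RNA and gave no clean floor. Free RNA was not removed. Likeness was Pearson's r of log2(CPM + 1) among genes with at least 10 CPM in 1 group, leaving out gate genes and other members.

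Members and gene lists were chosen with earlier results of these data known. The text names all members, ligands and partners (a few genes of these and other lists are not reported here), genes of other lists called in a gate (at most 4 per list and gate by fold) and the 3 genes most like each member. Those exceeding or outside this rule, CISH and the added marker genes, were named after their values were seen. Promoters came from RefSeq (GRCh38.p14), with 9 of 10 members matched and the 50 bases after the start left out, and gene positions from an hg19 annotation. On simulated counts for the C1Q, ELANE and globin gates, all 200 changed genes were recovered in each. Of the unchanged genes among 9844, 10168 and 9862 tested, 0, 376 and 0 were called. The planted changes were well past the limit for a call, in genes of at least 10 CPM over all kept cells, with counting error only. Recovery was therefore nearly certain. It does not cover genes under that level, such as KIT, FLT3 and EPOR, or folds close to the limit. Scripts ran in Python 3.11.15 (scipy 1.17.1, matplotlib 3.10.9), with Scrublet from scanpy 1.11.5.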

Additional observations from a re-analysis of the deposited data

Results flagged for a closer look

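The comparisons used barcodes called for 1 hashtag. Among 809 barcodes within the same limits that were called negative, 9 receptors had RNA above the limit that a count of 0 allows (0.235 CPM): KIT at 10.4 CPM, CSF1R at 17.5, CSF3R at 33.7, CSF2RA at 7.21, CSF2RB at 56.0, IL3RA at 9.48, IL6R at 6.42, IL6ST at 11.1 and EPOR at 5.56 CPM. These barcodes had 1.91 times the CSF2RB level of the kept cells (exact conditional 95% interval 1.76 to 2.07) and 0.271 times the CSF1R (0.236 to 0.310), 0.340 times the CSF2RA (0.273 to 0.418) and 0.198 times the IL6R level (0.157 to 0.246). IL3RA (0.576 times, 0.476 to 0.692) and IL6ST (0.787 times, 0.659 to 0.933) were also lower. KIT, CSF3R and EPOR had intervals of the ratio that include equal levels. The barcodes without a hashtag call therefore differed in receptor RNA from those described above, and which coating they came from is not known.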

How the results depend on the processing

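No paired analysis was possible because the library holds 1 pool per condition without replicates. Over the exclusive gates with 50 or more cells, which leave out PF4/PPBP, 9 receptor and gate pairs were called higher and 23 lower. The 2 higher and 4 lower calls of PF4/PPBP cells with overlap allowed are not among them. Between hashtags 0 receptors were apart (15 within gates). These are sizes of fold in 1 library, with no test. Higher calls ranged from 7 to 8 and lower calls from 17 to 24 when a hashtag was left out, in part because the ELANE or stromal gate then fell under 50 cells. Lower calls were 12 with 3 UMIs for every gate and 13 with 30 (15 for EPX and SPINK2), where 54 and 36 pairs could be compared instead of 63. A mitochondrial limit of 10% kept 74 of 2131 CD34/GATA2, 63 of 645 SPINK2, 48 of 635 C1Q and 18 of 432 globin cells. It kept 37 of 68 ELANE, 32 of 291 EPX and 41 of 71 stromal cells. Most cells of the CD34/GATA2, SPINK2, C1Q, EPX and globin gates thus had more than 10% mitochondrial UMIs. The limit left CD34/GATA2 and SPINK2 as the gates with 50 or more cells. It gave 0 higher calls, 9 lower calls, 4 between hashtags and 0 within gates, the last with no gate to compare. Of the 18 receptor and gate pairs compared, 15 moved outside the interval of the ratio as reported. Between hashtags, 1 receptor was called with the mean of per-cell CPM and 1 after thinning. Within gates the calls were 26 of 156 after thinning and 5 of 92 with gates of 30 (15) UMIs, where SPINK2 and EPX cells were too few to compare by hashtag. In an alternative chosen after seeing the data, the EPX gate at 15 UMIs, they were 8 of 126 with no EPX comparison left, in place of 15 of 158. With gates at their pooled shares, the highest over lowest hashtag ratio of CSF2RB was 1.52 in place of 1.75. No receptor and gate call changed sign in the alternatives where its gate could still be compared. Calls between hashtags were only counted again, so a change of sign there would not be seen. The peaks of CSF1R, CSF2RA, IL3RA and IL6R in C1Q, CSF3R in ELANE, CSF2RB in EPX, EPOR in globin and IL6ST in stromal cells stayed past 2-fold wherever their gate could be compared. IL6R in ELANE cells did not, at a log2 ratio of 0.91 without hashtag 0254 and 1.14 as reported, and it also missed 2-fold without 0255 and with the mean of per-cell CPM. Of the lower calls, CSF1R and IL6R in SPINK2, CSF1R and CSF2RB in ELANE, CSF2RA in EPX, CSF3R and IL3RA in globin, and KIT and IL6R in stromal cells each missed it under at least 1 alternative. The cause was not tested. Of 30 most alike genes, 21 were named again with a pseudocount of 5 CPM and 29 with a smallest level of 20 CPM. Depth limits KIT, FLT3 and EPOR most, since most cells that had them held 1 UMI.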

Other observations

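GM-CSF RNA and receptor RNA were set side by side after the CSF2 values were seen. The 57 CD34/GATA2 cells with at least 5 CSF2 UMIs had IL3RA at 21.7 CPM (exact Poisson 95% interval 14.2 to 31.8), against 10.9 CPM in the 1957 cells of the gate with none. IL6ST was at 20.8 CPM (13.5 to 30.8) against 9.22 CPM. CSF2RB was at 43.3 CPM (32.4 to 56.8) against 40.7 CPM, and CSF2RA at 5.00 CPM (1.84 to 10.9) against 5.34 CPM, so neither chain of the GM-CSF receptor was set apart at this depth. IL6R had 2 UMIs in the former cells, at 1.67 CPM (0.202 to 6.02), against 6.43 CPM.

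Receptors of the other factors in the EHT medium were mostly those of stromal cells, where 8 of 11 compared genes were higher (18.7% of all genes were), among them FLT1 (71.4 CPM) for VEGF and FGFR1 (67.0 CPM) for bFGF. LIFR and OSMR, partners of gp130, were at 6.09 and 7.84 CPM in these cells. The 4 of the 11 with the largest fold were FLT1, FGFR1, KDR and IGF1R at 31.5, 20.1, 6.55 and 5.67 times the other cells. Among blood cells, NRP1, a VEGF co-receptor, was at 48.2 CPM in C1Q cells (11.5 times the other cells) and IGF1R at 27.9 CPM in ELANE cells (2.52 times). KDR, the main VEGF receptor of endothelium, was at 2.16 CPM in CD34/GATA2 cells and at most 1.84 CPM in the other blood gates.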
